A study of Sus scrofa with 13 samples.

Results

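The origin effect shared by both blastocyst stages comprised the genes whose messages differed between pig embryos (Sus scrofa) produced by in vitro fertilisation (IVF) and embryos developed in vivo, in the same direction before and after hatching. Of 15528 genes tested, 1478 met this definition, 850 higher and 628 lower after IVF. A gene was called where the quasi-likelihood test of edgeR for origin, adjusted for stage, gave an adjusted p under 0.05. It was then kept as shared where, at each stage, every IVF library lay on the same side of every in vivo library.

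The comparison used 10 of the 13 messenger RNA libraries of the series: 2 of in vivo blastocysts, 2 of in vivo hatched blastocysts, 3 of IVF blastocysts and 3 of IVF hatched blastocysts. The other libraries were IVF 4-cell embryos, which had no in vivo counterpart. They gave levels and entered 1 alternative fit. Each library came from pooled embryos. The labels name no breed, animal, embryo age, pool size, culture medium or batch, so IVF, culture, parent animals, embryo age and collection day cannot be told apart. The p-values of the test adjusted for stage set each difference against the spread left after stage and origin are fitted. That spread holds the differences among libraries of a group and any difference of the origin effect between stages. Whether the differences among libraries are biological or technical was not given.

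A blastocyst consists of the trophectoderm, an outer epithelium that pumps fluid into a cavity, and the inner cell mass, which gives rise to the epiblast and the hypoblast. It hatches by leaving the zona pellucida, the coat of the egg, and in the pig the trophectoderm then grows rapidly before implantation. Secreted and membrane proteins of these tissues fold in the endoplasmic reticulum (ER), and embryos cultured after IVF are known to differ from embryos grown in the oviduct and uterus in metabolism and stress responses.

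In the test adjusted for stage, 933 genes rose after IVF (6.01% of those tested) and 753 fell (4.85%), against 4275 at an unadjusted p under 0.05. Here "rose" and "fell" mean that a gene passed this test, and no time course is meant. The shared genes were 5.47% of the genes tested on the higher side and 4.04% on the lower side. The 208 called genes that were not shared overlapped between origins in blastocysts for 114 genes and in hatched blastocysts for 94. Separation of the libraries alone was wider than the calls: 1444 genes (9.3%) lay higher and 1119 (7.21%) lower after IVF at both stages, called or not, and 907 lay apart in opposite directions at the 2 stages. The separation was read from the same counts as the test and is no further evidence. Where libraries of a shared gene are said below to lie apart, this restates the choice of shared genes.

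Sizes of the shared effects are from genes chosen for a call and for separation in these same libraries. Such a choice favours large estimates. The median log2 fold change (IVF minus in vivo, followed below by ± its standard error) was 1.38 for genes higher after IVF and -1.08 for genes lower, with 0.02 for all genes tested. A log2 change over 2 was reached by 248 higher and 111 lower genes. In 1284 of the 1478 genes all 6 IVF libraries lay on one side of all 4 in vivo libraries, stages pooled. Tested within a stage, 755 shared genes were called in blastocysts, 773 in hatched blastocysts and 370 at both. The stage effects differed by less than 1 on the log2 scale for 1124 shared genes (median absolute difference 0.52), and 724 had the larger effect in blastocysts. Protein-coding genes made up 1402 of the shared genes (94.9%, against 89.78% of the genes tested). Of 1339 long noncoding RNAs tested, 60 were shared and higher (4.48%) and 11 shared and lower after IVF (0.822%).

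**Figure D1:**
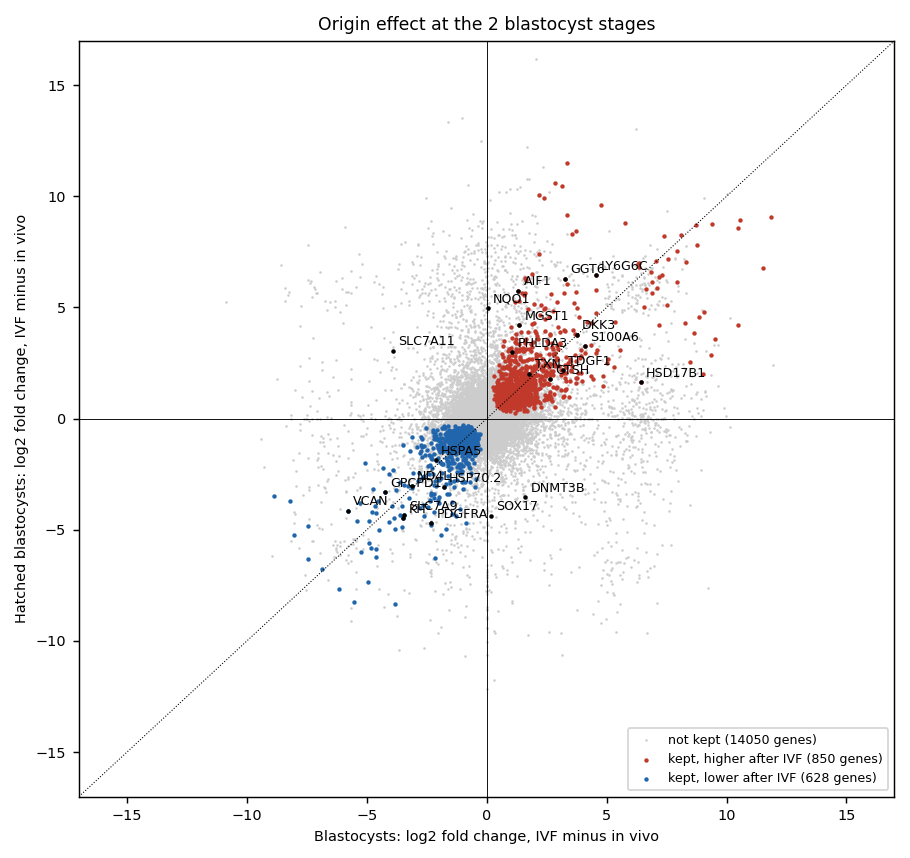
Log2 fold change (IVF minus in vivo) in blastocysts (horizontal axis) and in hatched blastocysts (vertical axis), with 1 point per gene tested; red and blue mark the 850 and 628 genes shared by both stages, grey the others, and black a set of named genes. The shared genes fill the corners of equal sign, as their choice requires, along the dotted line of equal effects. SLC7A11 and DNMT3B lie in the corners of opposite sign.

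At the threshold, SIRT3, DDX17 and EMSY were just inside, with adjusted p of 0.049858 to 0.049989, and TBC1D16, MCM7 and INPP1 just outside, with 0.050292 to 0.050316. The 10 libraries held 35110201 to 39273867 counts. A library with 0 counts of a gene could still hold 3 counts, which is 0.0764 to 0.0854 CPM (counts scaled to library size). The calls depended on single libraries: leaving out IVF hatched library 1 left 997 calls and 969 shared genes, leaving out in vivo hatched library 2 left 1027 and 1001, and leaving out IVF hatched library 3 left 1089 and 1044. Under every library left out in turn, 715 of the shared genes were called, 420 higher and 295 lower. With a library left out, sharing was judged on the remaining libraries, which is easier to meet than in the main fit. The shared counts of those fits are thus not the same measure as the 1478. With the 4-cell libraries in the fit, 114 genes were called and 110 were shared. In that fit, of the lists described below, mitochondrial messages had 7 calls, ER folding 5, lysosomal genes 4 and heat shock genes 2. NRF2 targets, amino acid transporters, hypoblast, pluripotency, hatching protease and signalling genes had 1 each, and the other lists 0.

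Libraries within a group differed in composition. Messages of the mitochondrial genome took 3.76% and 3.52% of the counts of the in vivo blastocyst libraries, 1.49% in the in vivo hatched library whose count column carries no number (the unnumbered library) and 6.85% in in vivo hatched library 2. In IVF libraries they took 0.883% to 1.07% in blastocysts and 0.606% to 0.982% in hatched blastocysts. Where annotated genes overlap, their reads cannot be told apart, because use of strand in counting was not given in the sources used here. This applies below to ND4 with ND4L, HSP70.2 with HSPA1L, SLC7A9 with TDRD12, HABP2 with NRAP, LPCAT2 with CAPNS2, PSCA with JRK, CYP17A1 with BORCS7, TIMP3 with SYN3, SLC16A1 with LRIG2, NOP56 with IDH3B, MTHFD2 with SLC4A5, PRSS23 with ME3 and AIF1 with LST1 and NCR3.

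Genes with the largest effect at the weaker stage are described first, beginning with those higher after IVF. LY6G6C, a small surface protein of the LY6 family (gene 110261495, chr7:23829790-23833610), had 3.13 and 4.03 CPM in the in vivo blastocyst libraries and 94.7, 71.6 and 84.2 in the IVF ones. After hatching it had 0.85 and 0 CPM in vivo and 39.3, 37.5 and 33.2 after IVF. Every IVF library was far above every in vivo library, and the change was 5.34 ± 0.70 (adjusted p = 0.00217). DKK3, a secreted protein of the Dickkopf family of Wnt modulators (gene 664653, chr2:47385244-47444664), had 2.99 and 10.2 CPM in vivo against 86.4, 91 and 91 after IVF in blastocysts. In hatched blastocysts it had 2.75 and 1.55 against 20.003, 18.3 and 50.0 CPM. Its change of 3.77 ± 0.43 (adjusted p = 0.00113) was nearly equal at the 2 stages, 3.76 and 3.78.

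COL26A1, a collagen (gene 100519542, chr3:9003126-9164074), had 0 and 0.256 CPM in in vivo blastocysts and 0.567 and 0 in in vivo hatched blastocysts. The IVF libraries had 6.28, 28.1 and 3.10 CPM before and 12.5, 2.90 and 11.6 after hatching, and the change was 5.70 ± 1.17 (adjusted p = 0.0125). In vivo it had 0 to 20 counts a library, and all 6 IVF libraries were above that. S100A6, a calcium-binding protein (gene 733608, chr4:96098264-96099686), had 2.57 and 1.74 CPM in vivo against 35.1, 62.5 and 13.4 after IVF in blastocysts, and 1.16 and 1.87 against 25.4, 8.57 and 9.80 in hatched blastocysts (3.67 ± 0.52, adjusted p = 0.00281). MACC1, a regulator of the gene for the MET receptor (gene 100626991, chr9:89130971-89342181), had 0.559 and 1.51 against 13.8, 28.2 and 21 CPM before hatching and 0.85 and 1.84 against 8.52, 8.73 and 23.1 after it (3.80 ± 0.51, adjusted p = 0.00222). The IVF ranges of both genes lay wholly above the in vivo ranges.

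Muscle-type genes were among these. TNNC1, the calcium-binding troponin of slow and cardiac muscle, had 1.73 and 0.385 CPM in vivo and 8.93, 12.9 and 8.95 after IVF in blastocysts, and 1.22 and 0.324 against 12.4, 5.36 and 17.8 in hatched blastocysts (3.60 ± 0.58, adjusted p = 0.00487). MYOM2, a protein of the sarcomere, changed by 4.44 ± 1.03 (adjusted p = 0.0202), and its call was lost without in vivo hatched library 2. The remaining members of this group were the membrane mucin MUC12 (5.10 ± 1.01), the gamma-glutamyltransferase GGT6 (4.53 ± 0.67), the surface protein PSCA (3.53 ± 0.61), the G-protein regulator RGS20 (3.21 ± 0.77, not called without in vivo blastocyst library 1) and C9H11orf70 (4.60 ± 0.51). In the 4-cell embryos COL26A1, TNNC1, S100A6 and PSCA had 0 counts in all 3 libraries, whereas GGT6 averaged 391 CPM of total counts there.

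**Figure D2:**
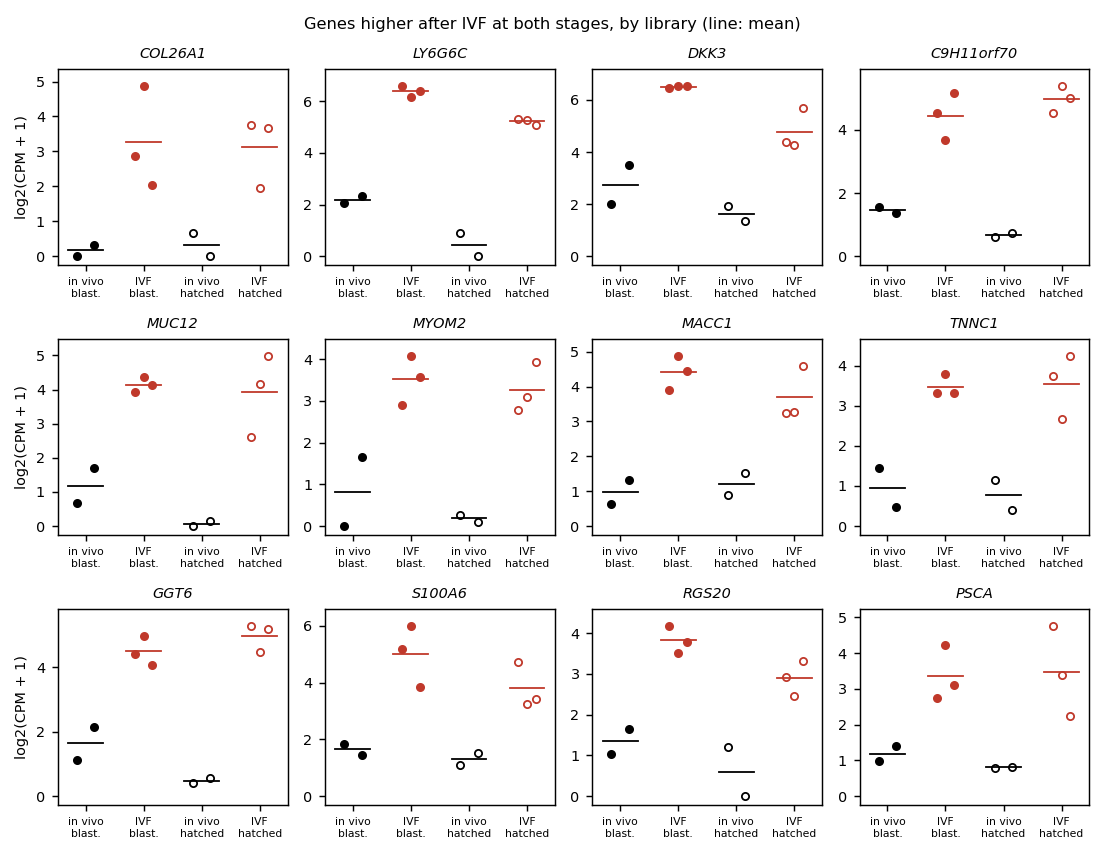
Log2(CPM + 1) in each library for the 12 shared genes with the largest effect at the weaker stage on the side higher after IVF; points are libraries (black in vivo, red IVF, filled blastocysts, open hatched) and lines are group means. In each panel the red points lie above the black points of the same stage, as the choice of shared genes requires.

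On the lower side, GPCPD1 and SLC7A9 were among the genes with the largest effect at the weaker stage. GPCPD1, an enzyme of choline phospholipid breakdown (gene 100152321, chr17:14420656-14476223), had 148 and 109.9 CPM in in vivo blastocysts and 6.05, 3.58 and 10.8 after IVF. In hatched blastocysts the values were 45.2 and 74.2 against 4.83, 7.63 and 5.47 CPM, and the change was -3.80 ± 0.34 (adjusted p = 0.000431). Every IVF library was far below every in vivo library. SLC7A9, the light chain of a transporter for cystine and basic amino acids (gene 100037973, chr6:42664795-42706113), had 267 and 83 against 11.5, 4.28 and 32.2 CPM before hatching and 228 and 632 against 26.9, 23.1 and 13.2 after it (-3.92 ± 0.55, adjusted p = 0.00265). It had 0 counts in the 3 libraries of 4-cell embryos.

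VCAN, the matrix proteoglycan versican (gene 397328, chr2:91682177-91811674), had 8.94 and 5.10 CPM in in vivo blastocysts and 0.0759, 0 and 0.299 after IVF, then 9.80 and 24.4 against 1.28, 1.63 and 0 in hatched blastocysts (-4.91 ± 0.96, adjusted p = 0.0102). LPCAT2, an acyltransferase that remodels phospholipids (gene 100517894, chr6:29999504-30056858), had 19.6 and 3.72 CPM in vivo against 0.0506, 0 and 1.20 after IVF before hatching and 11.14 and 32.9 against 0.739, 0.111 and 0.298 after it (-5.34 ± 0.98, adjusted p = 0.00793). Both were near 0 in several IVF libraries and above 3 CPM in all in vivo libraries. KIT, the receptor of stem cell factor (gene 396810, chr8:41402334-41492306), had 19.7 and 7.77 against 1.01, 0 and 2.64 CPM in blastocysts and 15.6 and 101 against 3.72, 1.44 and 2.63 in hatched blastocysts. Its change of -4.01 ± 0.82 (adjusted p = 0.0126) was no longer called without in vivo hatched library 2, which had the highest value. HERC5, a ligase of the ubiquitin-like protein ISG15, changed by -4.18 ± 0.88, the small neuronal-type protein PCP4L1 by -3.22 ± 0.69 and the retinol acyltransferase LRAT by -3.42 ± 0.74, the last not called without in vivo blastocyst library 1. SGIP1, an endocytic adaptor, changed by -4.57 ± 1.19 and lost its call without in vivo blastocyst library 1, in vivo hatched library 2 or IVF hatched library 1. HABP2, a secreted serine protease, had 1.118 and 0.641 CPM in in vivo blastocysts, 0 counts in the 3 IVF blastocyst libraries, 11.4 and 47.5 in in vivo hatched blastocysts and 2.36, 0 and 0 after IVF. It was not called without in vivo hatched library 2.

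**Figure D3:**
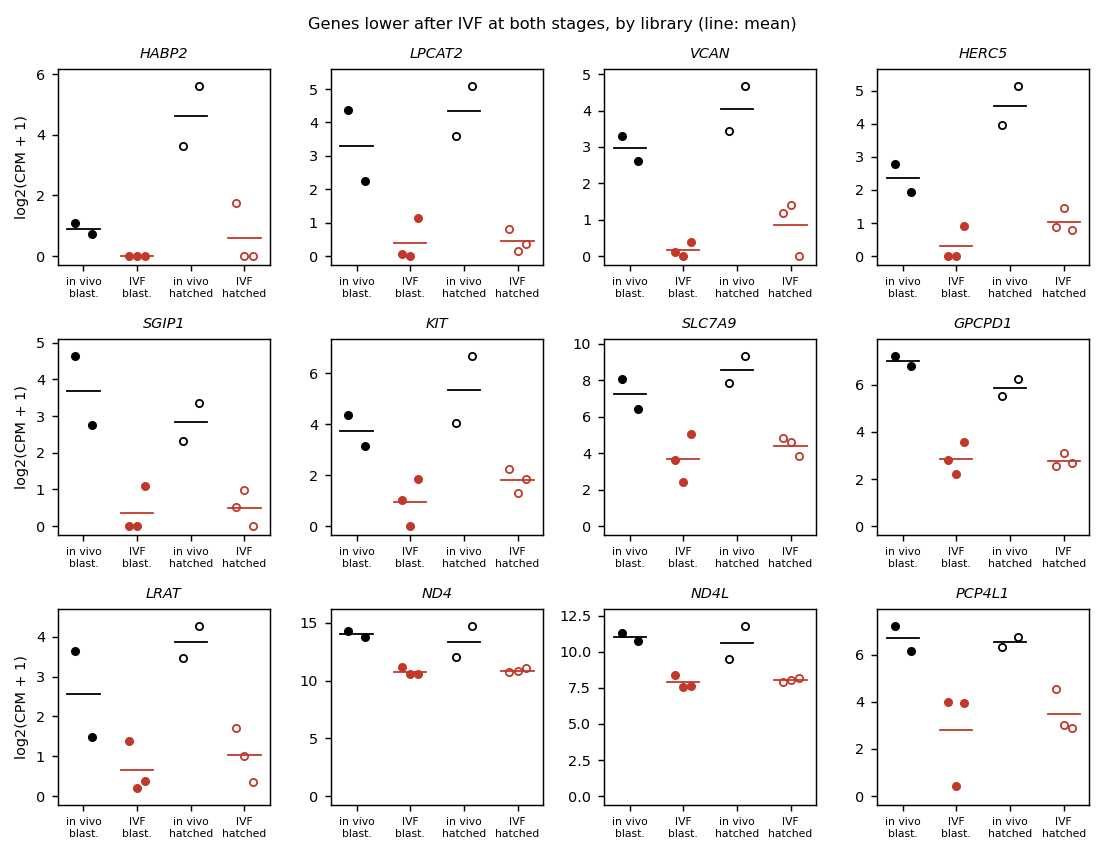
Log2(CPM + 1) in each library for the 12 shared genes with the largest effect at the weaker stage on the side lower after IVF, with points and lines as for the genes higher after IVF. In each panel the red points lie below the black points of the same stage, as the choice of shared genes requires. ND4 and ND4L are at far higher levels than the others.

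Genes of protein folding in the ER were lower after IVF. The ER holds chaperones and disulfide isomerases whose messages rise in the unfolded protein response. Of 28 tested ER chaperones and folding enzymes, 13 fell (46.4%, against 4.85% of all genes) and 0 rose (median log2 change -0.66). Of the 13, 12 were shared (42.9% of those tested, against 4.04% of all genes). HSPA5, the ER member of the HSP70 chaperones also known as BiP (gene 407060, chr1:265930044-265934959), had 4098 and 2887 CPM in in vivo blastocysts and 1019.7, 528 and 852 after IVF, and 4776 and 2672 against 789, 1466 and 783 in hatched blastocysts. The ranges were far apart at both stages, and the change adjusted for stage was -2.0 ± 0.26 (adjusted p = 0.00212). HYOU1, its nucleotide exchange factor, had 54.4 and 42.8 against 10.7, 16.2 and 21.4 CPM before hatching and 54.3 and 76.1 against 21.3, 17.2 and 13.7 after it (-1.75 ± 0.23, adjusted p = 0.00222). PDIA6, a disulfide isomerase, had 1497 and 996 against 304, 278 and 378 CPM before hatching and 899.8 and 945 against 395, 503 and 291 after it (-1.60 ± 0.22, adjusted p = 0.0023). The other shared members were DNAJB11, DNAJB9, PDIA4, CRELD2, MANF, DNAJC3, CANX, HSP90B1 and SEL1L. XBP1, the transcription factor of the IRE1 branch, did not pass (0.10 ± 0.29, adjusted p = 0.865), with 260.3 and 402 CPM before and 703 and 232 after hatching in vivo and 577, 407 and 407 before and 352, 420.0 and 396 after hatching with IVF.

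Entry into the ER and removal of misfolded proteins went the same way with smaller changes. Of 32 tested genes 8 fell (25%, against 4.85% of all genes), 0 rose and 7 were shared (21.9%, against 4.04%). The median was -0.44. SEC63, which couples HSPA5 to the import channel, had 132 and 107 against 60.3, 64.7 and 78.4 CPM in blastocysts and 137 and 158 against 84.3, 65.5 and 65.7 in hatched blastocysts (-0.93 ± 0.16, adjusted p = 0.00636). SELENOS, a selenoprotein of ER-associated degradation, changed by -0.99 ± 0.21 and SEC62, the partner of SEC63, by -1.0 ± 0.21. This count was sensitive to single libraries: 3 genes fell without IVF blastocyst library 1 or IVF hatched library 1, 4 without in vivo blastocyst library 1 or IVF blastocyst library 2, and 5 without IVF hatched library 3.

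The integrated stress response converges on ATF4, a transcription factor that induces genes of amino acid supply. Of 29 tested genes 5 fell (17.2%) and 2 rose (6.9%), against 4.85% and 6.01% of all genes, with 3 and 2 shared. The median was -0.56, with -0.91 in blastocysts and -0.25 in hatched blastocysts, and the difference between stages was called for 4. STC2, a secreted glycoprotein, had 20.8 and 24.4 CPM in in vivo blastocysts and 3.24, 1.48 and 5.55 after IVF, with 2.30 and 3.49 against 0.597, 1.24 and 1.27 in hatched blastocysts (-2.14 ± 0.42, adjusted p = 0.0109). SLC3A2, the heavy chain shared by several amino acid transporters, had 200.2 and 210.3 against 89.9, 136 and 123 CPM before hatching and 175 and 282 against 104, 114 and 118 after it (-0.92 ± 0.18, adjusted p = 0.00957). MTHFD2, a mitochondrial folate enzyme, went the other way, with 629.7 and 428 CPM before and 743 and 552 after hatching in vivo and 917, 951 and 1005 before and 1077, 1368 and 1141 after hatching with IVF (0.87 ± 0.17, adjusted p = 0.00947). The number that fell was 3 without in vivo blastocyst library 2, IVF blastocyst libraries 1 or 2 or IVF hatched libraries 1 or 3, and 2 without the unnumbered in vivo hatched library.

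Aminoacyl-tRNA synthetases, which charge tRNAs with amino acids, were lower in their cytosolic forms. All 20 tested members had a change below 0 (median -0.57). Of these, 7 fell (35%, against 4.85% of all genes) and all 7 were shared (against 4.04% of all genes). NARS, for asparagine, had 1546 and 1232 CPM in in vivo blastocysts against 575, 575 and 783 after IVF, and 989.8 and 1052 against 559.7, 752 and 538 in hatched blastocysts (-0.92 ± 0.17, adjusted p = 0.00823). HARS, for histidine, had 225 and 237 against 105, 130.4 and 121 CPM before hatching and 225 and 237 against 153, 169.5 and 127 after it (-0.79 ± 0.15, adjusted p = 0.00908). RARS, for arginine, changed by -0.96 ± 0.20, and the other shared members were WARS, CARS, MARS and LARS. With any library left out, 5 to 8 of the 20 fell, but 0 were called with the 4-cell libraries in the fit (median -0.59).

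Amino acid transporters included 6 genes that fell (27.3%, against 4.85% of all genes) and 0 that rose of 22 tested (4 shared, median -0.93). Beside SLC7A9 and SLC3A2 these shared genes were SLC1A1, a glutamate transporter, and SLC36A1, a lysosomal transporter of small amino acids with 23.4 and 21.8 CPM before and 23.9 and 17 after hatching in vivo against 8.65, 8.01 and 9.60 before and 10.8, 11 and 13.7 after hatching with IVF (-1.08 ± 0.21, adjusted p = 0.0107). SLC3A1, the heavy chain that pairs with the SLC7A9 protein, also fell but its libraries overlapped at 1 stage. The count was 3 without in vivo hatched library 2 or without any of the IVF hatched libraries 1, 2 and 3. SLC7A11, which imports cystine, had 59.9 and 69.8 CPM in in vivo blastocysts and 2.13, 1.79 and 8.92 after IVF, but 0.708 and 0.598 against 5.97, 6.74 and 3.71 in hatched blastocysts. Its order was thus opposite at the 2 stages, and it did not pass the test adjusted for stage (adjusted p = 0.568).

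Genes of nucleolar ribosome production were lower after IVF, and those of ribosomal proteins were not. Of 32 tested genes of rRNA synthesis and processing, 31 had a change below 0. Of the 32, 11 fell (34.4%, against 4.85% of all genes), 0 rose and 10 were shared (31.2%, against 4.04%). The median was -0.63, with -0.32 in blastocysts and -0.93 in hatched blastocysts, and the difference between stages was called for 3. NOLC1, a nucleolar phosphoprotein, had 254 and 267 against 149, 132 and 205 CPM in blastocysts and 347 and 464 against 169.5, 188 and 161 in hatched blastocysts (-0.96 ± 0.18, adjusted p = 0.00861). NOP58 and NOP56, core proteins of the particles that methylate rRNA, changed by -1.02 ± 0.20 and -1.03 ± 0.20. MYC, which drives genes of this class, was called lower but overlapped at 1 stage. Of 75 cytosolic ribosomal protein genes 5 rose and 0 fell (6.67%, close to the 6.01% of all genes; median 0.22). RPS3 had 190.4 and 237 CPM before and 252 and 139 after hatching in vivo against 431, 502 and 414 before and 486, 327 and 398 after hatching with IVF (1.06 ± 0.20, adjusted p = 0.00863). RPS19 changed by 0.88 ± 0.19 and RPS24 by 1.01 ± 0.23, and such genes have many near-identical copies, between which counts may have been split. Of the nucleolar genes, 4 fell without IVF hatched library 1, 5 without in vivo hatched library 2, IVF blastocyst library 2 or IVF hatched library 3, and 7 without the unnumbered library. Of the ribosomal protein genes, 2 rose without in vivo blastocyst library 1 or 2, 3 without in vivo hatched library 2 or IVF hatched library 1, and 14 without the unnumbered library.

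**Figure D4:**
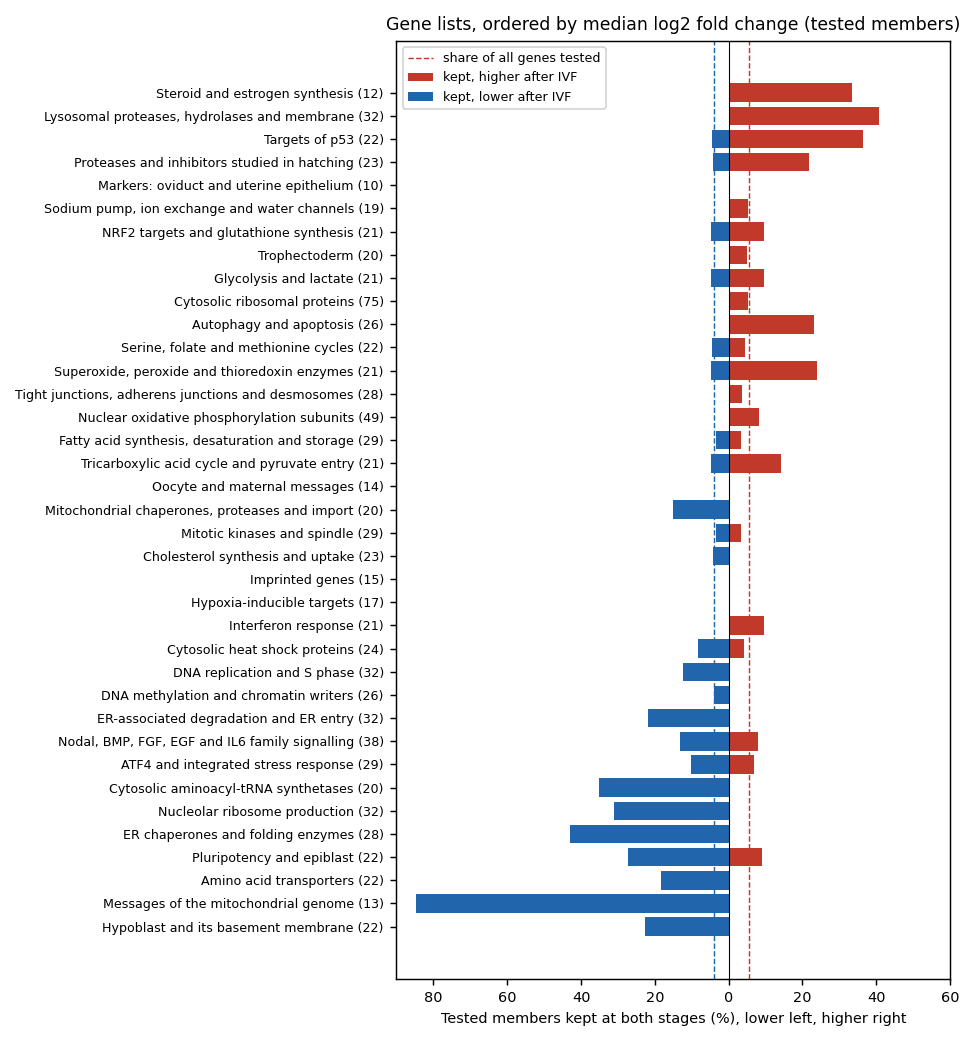
Share of the tested members of each gene list that were shared by both stages, lower after IVF to the left and higher to the right, with the number tested in parentheses and lists of at least 10 tested members ordered by median log2 fold change. Dashed lines mark the shares among all genes tested, 4.04% lower and 5.47% higher; mitochondrial messages, ER folding and tRNA synthetases extend furthest left, and lysosomal genes and p53 targets furthest right.

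Messages encoded by the mitochondrial genome, which specifies core subunits of the respiratory chain, were lower after IVF. All 13 had a change below 0 (median -1.71). Of these, 12 fell (92.3%, against 4.85% of all genes) and 11 were shared (84.6%, against 4.04%). ND4, a subunit of complex I (positions 11359 to 12736 of the mitochondrial genome), had 20403 and 13936 CPM in in vivo blastocysts and 2257, 1471 and 1495 after IVF, and 4224 and 26546 against 1662, 1762 and 2180.4 in hatched blastocysts (-3.17 ± 0.39, adjusted p = 0.00144). ND4L, read from the same transcript, had 2563 and 1727 against 344, 189 and 201 CPM before hatching and 729 and 3515 against 239, 262 and 285 after it (-3.07 ± 0.35, adjusted p = 0.00113). ND5 had 1017 and 1102 CPM before and 811 and 1626 after hatching in vivo and 456, 364 and 445 before and 498, 292 and 469 after hatching with IVF (-1.43 ± 0.22, adjusted p = 0.00371). The in vivo hatched libraries were far apart, with ND4 lower in the unnumbered library. Both lay above all IVF hatched libraries, as the choice of shared genes requires. In pooled embryos, fewer mitochondria, fewer cells of a type and fewer messages per cell cannot be told apart. With any library left out, 10 to 12 of the 13 fell.

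Subunits of the same chain encoded in the nucleus did not go with them, where tested. Of 61 listed, 49 were tested, and the others had no gene of that symbol or a shared symbol. Of the listed complex III subunits only UQCRB was tested. Of 49 tested, 6 rose (12.2%, against 6.01% of all genes) and 0 fell (median 0.11), and 4 were shared: COX7C, SDHC, COX7A2 and ATP5G2. COX7C, of complex IV, had 82 and 62.1 CPM before and 65.3 and 49.1 after hatching in vivo against 97.1, 108 and 115 before and 97.3, 94.2 and 97.5 after hatching with IVF (0.66 ± 0.16, adjusted p = 0.0246). These calls were fragile: 0 of the 49 rose without in vivo blastocyst library 2, in vivo hatched library 2 or IVF hatched library 1 or 3, 1 without IVF blastocyst library 1 or 2 or IVF hatched library 2, 2 without IVF blastocyst library 3 and 3 without in vivo blastocyst library 1. Of 20 mitochondrial import, chaperone and protease genes, 3 fell (15%, against 4.85% of all genes) and 0 rose, all shared. TIMM44, of the import motor, had 175 and 131 CPM before and 182 and 249 after hatching in vivo against 86.3, 74 and 100.2 before and 68.7, 128 and 91.5 after hatching with IVF (-0.99 ± 0.20, adjusted p = 0.0128). CLPX (-0.68 ± 0.18) and GRPEL1 (-0.52 ± 0.14) lost their calls without most single libraries, and the count was 1 without in vivo blastocyst library 1, in vivo hatched library 2, IVF blastocyst library 1 or 3 or IVF hatched library 1 or 3.

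Carbon metabolism had shared genes on both sides. Of 21 genes of the tricarboxylic acid cycle and pyruvate entry, 3 rose (14.3%), SUCLG2 and MDH1 among them, and 1 fell (4.76%). Of all genes tested, 6.01% rose and 4.85% fell. DLAT, the acetyltransferase of pyruvate dehydrogenase, had 318 and 234 CPM before and 306 and 275 after hatching in vivo against 124, 127 and 187 before and 130.2, 210.2 and 154 after hatching with IVF (-0.87 ± 0.19, adjusted p = 0.0152). Of 21 glycolysis and lactate genes, 3 rose (14.3%) and 1 fell (4.76%). The lactate and pyruvate carrier SLC16A1, or MCT1, had 152 and 140.3 CPM in in vivo blastocysts against 63.6, 26.1 and 72 after IVF and 132 and 391.9 against 11.9, 6.69 and 21.2 in hatched blastocysts (-3.02 ± 0.62, adjusted p = 0.0129). The phosphofructokinase PFKP rose (2.08 ± 0.41, adjusted p = 0.0106), while PGAM1 (0.57 ± 0.15) lost its call without 9 of the 10 libraries. Without each of 8 single libraries, all but the unnumbered in vivo hatched library and IVF hatched library 2, 1 glycolysis gene rose.

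Lysosomal genes were higher after IVF. The lysosome degrades proteins and lipids taken up or sorted to it, and in the pig the trophectoderm takes up maternal secretions. Of 32 tested lysosomal proteases, hydrolases and membrane proteins, 14 rose (43.8%, against 6.01% of all genes) and 0 fell (median 0.91). Of the 14, 13 were shared (40.6% of those tested, against 5.47% of all genes). ASAH1, acid ceramidase (gene 100512932, chr17:5712048-5749811), had 189.7 and 191 CPM in in vivo blastocysts and 695, 784 and 454 after IVF, with 148 and 214 against 589.7, 675 and 802 in hatched blastocysts (1.84 ± 0.20, adjusted p = 0.00113). CTSH, cathepsin H (gene 396969, chr7:48084882-48106072), had 45.2 and 50.8 against 307, 368 and 209.8 CPM before hatching and 101 and 58 against 347, 212 and 257 after it (2.19 ± 0.28, adjusted p = 0.00174). For both genes the lowest IVF library was more than 2 times the highest in vivo library of its stage. CTSF, cathepsin F, had 19 and 32.7 against 59, 56.1 and 56.1 CPM before hatching and 12.9 and 13.6 against 49.6, 48.2 and 66.3 after it (1.58 ± 0.25, adjusted p = 0.00437). The other shared genes were CTSK, CSTB (a cathepsin inhibitor), GUSB, CTSB, CTSA, HEXA, CTSD, PSAP, GM2A and GLB1. With any library left out, 12 to 14 of the 32 rose.

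**Figure D5:**
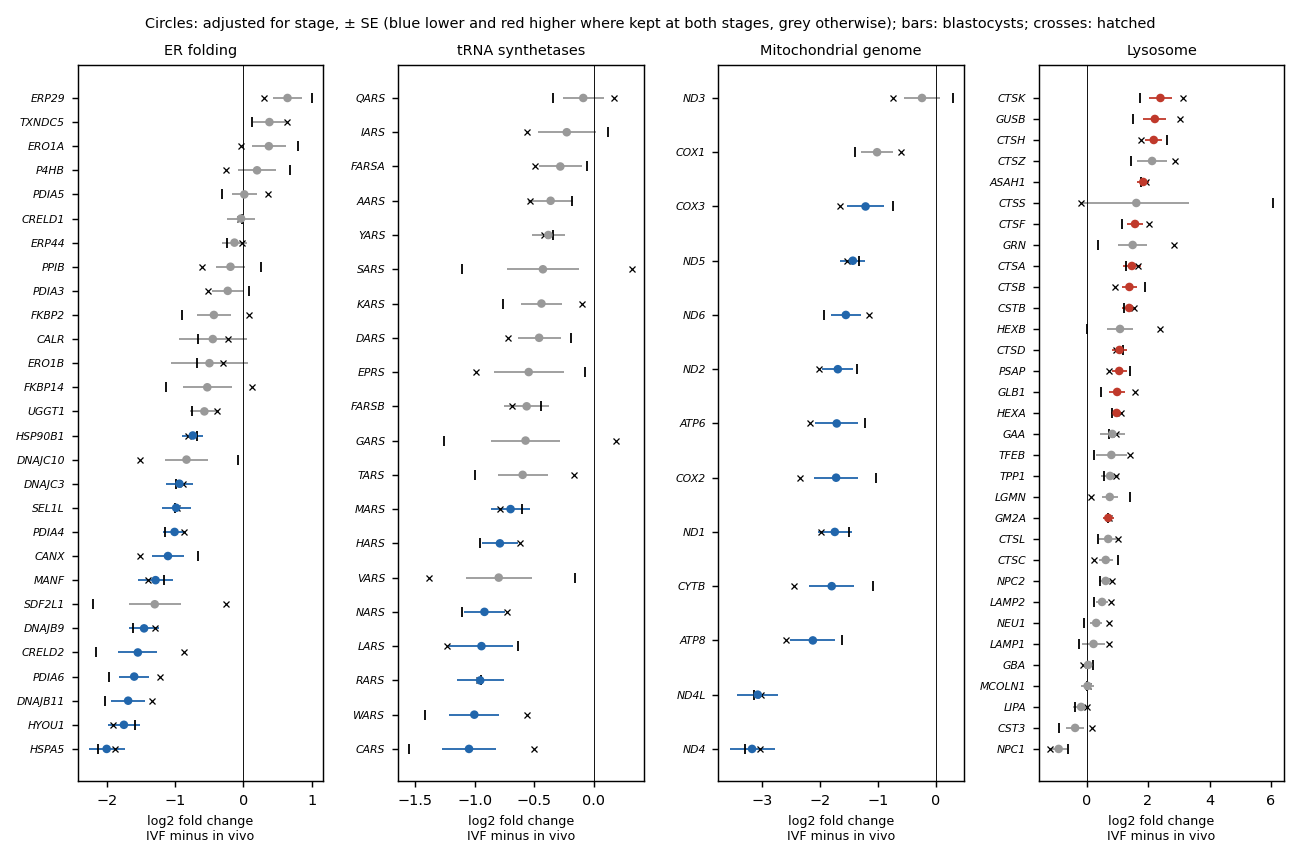
Log2 fold change (IVF minus in vivo) of every tested member of 4 gene lists; circles with lines give the value adjusted for stage ± its standard error (blue lower and red higher where shared, grey otherwise), short bars the value in blastocysts and crosses that in hatched blastocysts. The 20 tRNA synthetases and 13 mitochondrial messages all lie below 0, and 29 of 32 lysosomal genes lie above 0.

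Targets of p53, the transcription factor that responds to DNA damage and other stress, were also higher. Of 22 tested targets 8 rose (36.4%, against 6.01% of all genes) and 1 fell (4.55%, against 4.85%), all shared. The median was 0.91, with 0.38 in blastocysts and 0.98 in hatched blastocysts, and the difference between stages was called for 4. AEN, a nuclease, had 75.9 and 104 CPM in in vivo blastocysts against 230.4, 278 and 213 after IVF, and 80.8 and 55 against 209.5, 212 and 272 in hatched blastocysts (1.59 ± 0.19, adjusted p = 0.00143). CCNG1, cyclin G1, had 1097 and 1452 against 2906, 2736 and 2564 CPM before hatching and 906 and 811 against 2875, 3439.7 and 3626 after it (1.51 ± 0.20, adjusted p = 0.00222). The IVF libraries of both genes formed a narrow range above the in vivo range. MDM2, ZMAT3, TP53INP1, PHLDA3 (1.96 ± 0.38), FDXR (1.34 ± 0.21) and BAX (1.88 ± 0.39) rose too, and DDB2, a DNA damage sensor, fell. With any library left out, 7 to 9 targets rose. Of 26 genes of autophagy and apoptosis, 6 rose (23.1%), 0 fell and 6 were shared, BAX, BID, CASP8, BCL2L1 and MAP1LC3B among them. BCL2L1 opposes cell death, whereas BAX and BID promote it.

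Redox genes were mixed. Of 21 tested targets of NRF2, the regulator of antioxidant genes, 2 rose and 2 fell (9.52% each, against 6.01% and 4.85% of all genes). TXN, thioredoxin, had 231 and 226 CPM before and 327 and 133 after hatching in vivo against 688, 985 and 669 before and 1133, 762 and 902 after hatching with IVF (1.90 ± 0.26, adjusted p = 0.0023), and FTL, the ferritin light chain, changed by 1.12 ± 0.22. GCLM, of glutathione synthesis, changed by -0.85 ± 0.25 and lost its call without 9 of the 10 libraries. NQO1 did not pass (adjusted p = 0.219), with 2.93 and 13 CPM in vivo and 6.30, 7.73 and 10.6 after IVF in blastocysts but 0.822 and 0.773 against 32.6, 21.9 and 20.8 in hatched blastocysts. It was called higher with DESeq2, with voom, with no low count filter, with an unweighted average of the stages and without in vivo blastocyst library 2, and its change ranged from 1.09 to 3.27 with 1 library left out. Of 21 other redox enzymes 5 rose (23.8%) and 1 fell (4.76%), all shared. MGST1, GLRX (1.42 ± 0.30), PRDX5 (1.14 ± 0.24), GPX4 and GLRX2 rose and GSTO1 fell. MGST1, a membrane glutathione transferase, had 173 and 147 against 432, 429 and 369 CPM before hatching and 20.2 and 17.1 against 370.2, 289 and 376 after it (2.63 ± 0.51, adjusted p = 0.0102). The count that rose was 3 without either in vivo hatched library or any IVF hatched library.

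Cytosolic heat shock genes were led by 2 that fell at both stages. HSP70.2, an inducible HSP70 gene with a near-identical neighbouring copy (gene 396648, chr7:23925929-23927854), had 668 and 1141 CPM in in vivo blastocysts and 294, 196 and 294 after IVF, and 2661 and 3244 against 393, 259.9 and 395 in hatched blastocysts (-2.46 ± 0.28, adjusted p = 0.00113). BAG3, a co-chaperone, had 35.9 and 57.5 against 18.6, 16.7 and 18.9 CPM before hatching and 121 and 154 against 19.1, 15.4 and 13.7 after it (-2.29 ± 0.32, adjusted p = 0.00266). Of 24 tested genes 3 fell (12.5%, against 4.85% of all genes) and 1 rose (4.17%, against 6.01%). The last was HSPB1 (1.41 ± 0.39), whose call was lost without 7 of the 10 libraries. Without in vivo blastocyst library 1, 6 fell.

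Part of the hypoblast genes fell after IVF. The hypoblast is the layer of extraembryonic endoderm that lines the cavity and lays down basement membrane. Of 22 tested genes 8 fell (36.4%, against 4.85% of all genes), 0 rose and 5 were shared (22.7%, against 4.04%). The median change was -0.31 in blastocysts and -3.62 in hatched blastocysts, and the difference between stages was called for 5 of the 22. PDGFRA, a receptor of hypoblast cells, had 12.1 and 13.9 CPM in in vivo blastocysts and 2.48, 1.87 and 3.46 after IVF, and 20.2 and 207 against 5.06, 4.31 and 3.73 in hatched blastocysts (-3.62 ± 0.63, adjusted p = 0.00637). FN1, fibronectin, had 45.2 and 34.7 against 16.8, 5.34 and 4.35 CPM before hatching and 80.1 and 230.3 against 15.6, 4.53 and 5.03 after it (-3.27 ± 0.59, adjusted p = 0.0076). HNF4A, an endoderm transcription factor, changed by -2.86 ± 0.58, and LAMB1 and APOE were also shared. In vivo hatched library 2 had the highest level of PDGFRA, FN1 and HNF4A. GATA6 did not pass (0.26 ± 0.22, adjusted p = 0.505). SOX17, a later hypoblast factor, had 2.51 and 3.79 against 5.31, 2.36 and 3.05 CPM in blastocysts and 30.6 and 76.4 against 5.43, 1.57 and 0.812 in hatched blastocysts, for in vivo and IVF in turn (adjusted p = 0.131). SOX17 was called lower with DESeq2, with voom, with no low count filter and with an unweighted average of the stages. The summed level of the 25 listed genes was 2820 to 3950 CPM in in vivo and 1920 to 2270 in IVF blastocysts, and 5970 to 12900 and 1910 to 2600 in hatched blastocysts, with TTR and AFP at 0. APOA1, DAB2 and LRP2 had the highest levels in this sum. DAB2 is also on the trophectoderm list, so the sum is not specific to the hypoblast. The number that fell was 3 without IVF hatched library 1 or 3, 4 without in vivo hatched library 2, IVF blastocyst library 2 or IVF hatched library 2, and 5 without the unnumbered library.

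Pluripotency and epiblast genes were mostly lower after IVF, with calls on both sides. Of 22 tested, 18 had a change below 0 and 4 above 0 (median -0.75). NANOG was not counted, since more than 1 gene carries that symbol. Among the 22, 7 fell (31.8%) and 2 rose (9.09%), against 4.85% and 6.01% of all genes, with 6 and 2 shared. TDGF1, the Nodal co-receptor Cripto (gene 100623389, chr13:29537874-29544686), had 29.8 and 31.2 CPM in in vivo blastocysts and 279, 381 and 170.1 after IVF, and 37.7 and 47.4 against 217, 178 and 187 in hatched blastocysts (2.67 ± 0.28, adjusted p = 0.00113). Its lowest IVF library was more than 3 times its highest in vivo library, and it had 0 counts in the 4-cell embryos. POU5F1, or OCT4, which is also expressed in the pig trophectoderm at these stages, had 836 and 675 CPM before and 525 and 305 after hatching in vivo and 1367, 1065 and 902 before and 742, 999.5 and 991 after hatching with IVF (0.84 ± 0.22, adjusted p = 0.0308). It was no longer called without 6 of the 10 libraries, each taken singly. OTX2, a homeobox factor of epiblast and anterior endoderm, had 103 and 37.4 against 28.2, 24.2 and 28.4 CPM before hatching and 88.7 and 236 against 24.2, 30.2 and 16.2 after it (-2.12 ± 0.39, adjusted p = 0.00802). FGF4, a growth factor from the epiblast, had 6.96 and 0.949 against 0, 0 and 0.463 CPM before hatching and 3.12 and 8.08 against 0.426, 0.138 and 0.514 after it (-4.30 ± 1.01, adjusted p = 0.0208, not called without in vivo blastocyst library 1 or in vivo hatched library 2). GDF3, PRDM14, DPPA4 and KLF4 were also shared on the lower side. SOX2 did not pass (-1.65 ± 0.96, adjusted p = 0.301). Of these genes, 1 fell without in vivo blastocyst library 1 or in vivo hatched library 2, 3 without IVF blastocyst library 2 and 4 without IVF blastocyst library 1 or IVF hatched library 1 or 3.

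Of 20 tested trophectoderm genes, 1 rose (5%, close to the 6.01% of all genes) and 0 fell (against 4.85%). That gene was PPAG3, a pregnancy-associated glycoprotein of a family of close copies, with 1.118 and 11.6 CPM before and 0.312 and 0.399 after hatching in vivo and 35.2, 35.3 and 16.6 before and 71, 30.4 and 79.9 after hatching with IVF (4.10 ± 1.12, adjusted p = 0.0381), and its call was lost without 8 of the 10 libraries. CDX2 (0.44 ± 0.31, adjusted p = 0.39) and GATA3 (-0.25 ± 0.30, adjusted p = 0.643), transcription factors of this lineage, did not pass. The summed level of 23 trophectoderm genes, mostly the keratins KRT8 and KRT18, was 26400 to 26600 CPM in in vivo and 34100 to 40400 in IVF blastocysts, and overlapped after hatching (22200 to 33300 and 24300 to 34200). The part that the balance of lineages takes in the gene changes above was not tested.

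Steroid synthesis is a known function of the pig trophectoderm around elongation. Of 12 tested genes 4 rose (33.3%, against 6.01% of all genes) and 0 fell, and all 4 were shared. FDX1, the ferredoxin that feeds electrons to mitochondrial P450 enzymes, had 58.5 and 56.5 against 154, 176 and 129.7 CPM before hatching and 96.1 and 49.8 against 186, 149 and 118 after it (1.23 ± 0.22, adjusted p = 0.00771). FDXR, its reductase and also a p53 target, had 349.8 and 283 against 874, 1007 and 747 CPM before hatching and 436 and 225 against 837, 653 and 798 after it (1.34 ± 0.21, adjusted p = 0.00432). CYP17A1, which makes androgen precursors, had 0 and 1.10 CPM in in vivo blastocysts and 0 counts in both in vivo hatched libraries, against 10.04, 31.9 and 3.40 before and 2.98, 2.43 and 2.49 after hatching with IVF (adjusted p = 0.013). HSD17B1, which forms estradiol, had 2.26 and 1.38 against 104, 258 and 108 CPM in blastocysts but 101 and 29 against 365, 138 and 106 in hatched blastocysts (adjusted p = 0.048). The hatched libraries of HSD17B1 were separated by little, and its call was lost without 7 of the 10 libraries.

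Among proteases and inhibitors studied in hatching, 6 of 23 rose (26.1%) and 2 fell (8.7%), against 6.01% and 4.85% of all genes, with 5 and 1 shared. TIMP3, a metalloprotease inhibitor, had 138 and 167 CPM before and 72.6 and 65.7 after hatching in vivo against 417, 269 and 409 before and 207, 318 and 246 after hatching with IVF (1.57 ± 0.21, adjusted p = 0.0023). PRSS23, a secreted serine protease, had 7.82 and 4.54 against 18.1, 25.5 and 37 CPM before hatching and 3.20 and 1.35 against 19.6, 8.15 and 10.4 after it (2.30 ± 0.38, adjusted p = 0.00575). SPINT1 and PRSS22 also rose, and MMP2 fell. Of 28 junction genes 3 rose (10.7%) and 1 fell (3.57%), and of 19 ion pumps and water channels 1 rose and 1 fell (5.26% each). Each list gave 1 shared gene. These were the desmosomal PKP3 (1.06 ± 0.27, not called without IVF blastocyst library 1 or 2 or IVF hatched library 3) and the sodium pump regulator FXYD4 (0.86 ± 0.24, not called without 8 of the 10 libraries). Of the junction genes, 0 rose without IVF blastocyst library 1 or 2, and 1 without in vivo blastocyst library 1, in vivo hatched library 2, IVF blastocyst library 3 or IVF hatched library 1 or 3.

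Signalling genes of the Nodal, BMP, FGF, EGF and IL6 families included 4 that rose (10.5%) and 7 that fell (18.4%) of 38 tested. These shares were 6.01% and 4.85% over all genes, and 3 and 5 of the signalling genes were shared. Among ligands and co-receptors, TDGF1, BMP4 and FGF2 rose and FGF4 and GDF3 fell. Among receptors, FGFR4, which binds FGF, had 8.83 and 6.18 against 1.54, 0.519 and 2.86 CPM before hatching and 11.2 and 34.2 against 2.70, 1.49 and 2.38 after it (-2.81 ± 0.49, adjusted p = 0.00675), and IL6R, the IL6 receptor, had 36.4 and 9.15 against 1.49, 0.752 and 1.14 CPM before hatching and 3.12 and 7.63 against 2.16, 0.967 and 0.298 after it (-3.36 ± 0.65, adjusted p = 0.0102). The FGF feedback inhibitor SPRY1 fell as well. In vivo values of both receptors varied several-fold between libraries. That they lay above all IVF values of the same stage follows from the choice of shared genes. The number that fell was 4 without in vivo hatched library 2 or IVF hatched library 1 or 3. Of 21 interferon-response genes 2 rose (9.52%) and 0 fell. TAP1, a peptide transporter, had 22.1 and 34.5 against 87.1, 93.5 and 57.1 CPM before hatching and 10.3 and 7.18 against 73.1, 50.8 and 32.7 after it (2.01 ± 0.33, adjusted p = 0.00517).

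DNA replication genes had 4 members that fell (12.5%, against 4.85% of all genes) and 0 that rose of 32 tested. The median was -0.35, with -0.025 in blastocysts and -0.73 in hatched blastocysts, and the difference between stages was called for 4. The genes that fell were MCM10, which loads polymerase alpha, at -0.86 ± 0.21, the helicase component CDC45 at -0.82 ± 0.22, the polymerase POLD1 at -0.76 ± 0.20, and RRM1. Each of the 3 with a value lost its call without 5 to 7 of the single libraries. The count that fell was 0 without IVF blastocyst library 1 or IVF hatched library 1, 1 without IVF hatched library 3, and 2 without in vivo hatched library 2, IVF blastocyst library 2 or IVF hatched library 2. Of 29 mitotic genes 1 fell and 1 rose (3.45% each). The phosphatase CDC25C fell (-0.89 ± 0.18) and MAD2L1, of the spindle checkpoint, rose (0.64 ± 0.17, not called without 9 of the 10 libraries). Of 26 genes of DNA methylation and chromatin, 2 fell (7.69%) and 0 rose. TRIM28, a corepressor that protects imprints, was shared (-0.96 ± 0.23, not called without 4 of the 10 libraries). DNMT3B, which methylates DNA de novo, had 1.23 and 1.36 CPM in vivo and 2.94, 5.57 and 3.26 after IVF in blastocysts but 31.5 and 66.2 against 7.42, 1.93 and 3.33 in hatched blastocysts, and did not pass (adjusted p = 0.388).

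In the lists of this paragraph, 0% to 4.55% of the tested members were shared on each side. Of all genes tested, 5.47% were shared and higher and 4.04% shared and lower. Of 15 imprinted genes 0 were called, IGF2 included (-1.03 ± 1.03, adjusted p = 0.575), by edgeR's quasi-likelihood test. At an unadjusted p under 0.05, 2 imprinted genes were higher and 1 lower after IVF, and DESeq2 called 2 higher and limma voom 1. Of 23 genes of cholesterol synthesis and uptake only FDFT1, squalene synthase, was called, with 229 and 173 CPM before and 28.4 and 28 after hatching in vivo against 138, 69.5 and 125 before and 7.93, 14.8 and 10.4 after hatching with IVF (-1.11 ± 0.24, adjusted p = 0.0153). Of 29 fatty acid genes 3 rose (10.3%, against 6.01% of all genes tested) and 2 fell (6.9%, against 4.85%), with 1 shared on each side. CPT1A, which admits fatty acids to mitochondria, fell (-1.36 ± 0.28, adjusted p = 0.013). The lipid droplet protein PLIN3 rose (0.57 ± 0.16) but lost its call whichever of the 10 libraries was left out. The desaturase FADS1 was called (1.36 ± 0.38, not called without 8 of the 10 libraries) but not shared: it had 46.4 and 50.8 against 296, 305 and 205 CPM in blastocysts, while its hatched libraries overlapped, with 130.3 and 92.5 in vivo and 167, 119.8 and 153 after IVF. Of the fatty acid genes 0 rose without in vivo blastocyst library 2, in vivo hatched library 2, IVF blastocyst libraries 1 or 2 or IVF hatched libraries 1 or 3, and 1 without IVF blastocyst library 3. Of 22 genes of the serine, folate and methionine cycles, MTHFD2 rose and GNMT, which consumes S-adenosylmethionine, fell (-3.94 ± 0.83, not called without in vivo blastocyst library 2). Of 14 oocyte genes 1 rose (7.14%), and of 17 hypoxia targets 2 fell (11.8%), with 0 shared in either list.

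Markers of cells that could accompany embryos were read beside these results, as sums of CPM over each library's total counts without scaling factors. Oviduct and uterine epithelium genes summed to 6 to 17 CPM in in vivo and 12.4 to 21.3 in IVF libraries, with 0 of 10 called by edgeR, 1 higher after IVF at an unadjusted p under 0.05, and 1 called higher by DESeq2 and by limma voom. Stromal and vessel genes summed to 14.8 to 56 CPM in vivo and 15.6 to 87.6 after IVF, with LUM and KDR at 0, and PECAM1 fell (-1.99 ± 0.55, not called without 7 of the 10 libraries). Sperm genes summed to 73.2 to 157 CPM in vivo and 88.6 to 121 after IVF, with PRM2, TNP1, TNP2, ODF1, AKAP4 and SMCP at 0. Cumulus genes, which include VCAN and the steroid enzyme CYP11A1, summed to 21.9 to 22.2 CPM in in vivo and 30.3 to 118 in IVF blastocysts, and to 192 to 217 and 75.3 to 213 after hatching, with FSHR, LHCGR and TNFAIP6 at 0. Blood and immune genes summed to 54.2 to 69.2 and 124 to 175 CPM in blastocysts and to 2.99 to 6.75 and 122 to 161 after hatching, in vivo and IVF in turn. Most of this was AIF1, with 70.5 and 48.7 CPM before and 1.67 and 3.54 after hatching in vivo and 168, 161 and 115 before and 145, 126 and 152 after hatching with IVF (3.10 ± 0.83, adjusted p = 0.0353, not called without 4 of the 10 libraries), and 9 of the 12 listed genes were under 1 CPM in every library.

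A test of the difference between the stage effects called 732 of 15528 genes (4.71%), against 3403 at an unadjusted p under 0.05. It called 333 to 453 genes without in vivo blastocyst library 1, in vivo hatched library 2 or any single IVF library, and 968 and 969 without the unnumbered library and in vivo blastocyst library 2. Of the 1478 shared genes 66 were among them, so for these the value adjusted for stage averages unequal effects. The origin effect of MGST1 was 1.36 in blastocysts and 4.21 in hatched blastocysts (adjusted p of the difference 0.00153), and that of PHLDA3, a p53 target that restrains AKT, 1.06 and 2.99 (0.0174). BAG3 changed by -1.37 and -3.10 (0.0254), GGT6 by 3.26 and 6.29 (0.0336), and HSD17B1, in the other order, by 6.42 and 1.64 (0.0189). By contrast, HSPA5 had -2.13 and -1.88 with an adjusted p of the difference of 0.841, which does not show that its effects were equal.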

How the data were processed

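Total RNA of pooled embryos was enriched for polyadenylated RNA and sequenced as read pairs on an Illumina HiSeq, per the labels' protocols. The authors deposited whole-number read counts per gene on Sscrofa11.1. Tools listed in the submitters' processing notes, without a role, were RSEM, HISAT2, Bowtie2, StringTie 1.3.1 and fastp 0.18.0, and the counter was not given in the sources used here. Of 28232 genes, 28208 matched RefSeq by gene number, which gave positions and biotypes, and 488 shared a symbol with another gene. List members were also matched by older symbols. The other 26 value columns (FPKM and TPM) were not used.

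Counts of 10 libraries were fitted in R 4.3.3 with edgeR 4.0.16 (quasi-likelihood test, TMM factors, its filter on low counts with a minimum of 10, stage plus origin, Benjamini-Hochberg over 15528 genes). Effects within stages and their difference came from a fit of 4 group means. CPM values are TMM-normalised. Alternatives used DESeq2 1.42.0, voom of limma 3.58.1, other scalings and filters, a replicate block, the 4-cell libraries, and each library left out. In data simulated for the origin comparison over 15528 genes with 200 changed, 7% of 2-fold and 49% of 4-fold changes were called. In the real data 1686 genes were called. The adjusted p is stricter where fewer genes change, so these shares may be lower than in the real data. Replicates differed by more than counting noise (chi-square per degree of freedom 72.5 to 285.8). The labels do not say that a number marks a shared animal, batch or day, so numbers were not taken as pairs. Deviations of same-numbered libraries from their group means had correlations of -0.254 to 0.0457. In a group of 2 libraries these deviations mirror each other, so the correlations cannot exclude pairing. One in vivo hatched count column carries no number.

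Named genes were, on each side, the 12 shared genes with the largest effect at the weaker stage, a symbol held by 1 gene and at least 10 CPM on average over the libraries of the higher origin. To these came up to 3 shared members of each list by smallest p, and 18 genes given whether shared or not. Genes named without a value come from the lists. Members, lists and tests were chosen with earlier results of these data known. Counts of a list are descriptions, without a test of the list. Promoter sequences were not used here. Some genes counted in the lists are not reported here by name.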

Additional observations from a re-analysis of the deposited data

Results flagged for a closer look

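For 13 named genes the origin effect differed between the stages, by the edgeR interaction test with adjusted p under 0.05. Values are the effect in hatched blastocysts minus that in blastocysts on the log2 scale. Among genes shared by both stages the difference was 3.03 for GGT6, 2.85 for MGST1, 5.21 for PPAG3, 4.44 for AIF1, 1.93 for PHLDA3, -1.73 for BAG3 and -4.78 for HSD17B1. Among the other named genes it was 6.98 for SLC7A11, 4.93 for NQO1, -2.07 for FADS1, -2.58 for GATA4, -4.54 for SOX17 and -5.13 for DNMT3B.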

How the results depend on the processing

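All 1478 shared genes kept the sign of their effect in every alternative in which they were fitted. They were selected for libraries that lay apart at both stages, which makes a change of sign unlikely, so this is no further evidence. The number called moved. Genes called higher and lower numbered 1615 and 1421 with DESeq2, 1744 and 1265 with an unweighted average of the stages, and 66 and 48 with the 4-cell libraries in the fit (63 and 47 shared). The cause was not tested. With the replicate block on the 9 numbered libraries 371 rose and 198 fell (366 and 189 shared), against 883 and 709 in the same libraries without it, and 0 of 20 cytosolic tRNA synthetases fell. Asking for a call at each stage separately left 257 higher and 114 lower genes. With each library left out in turn, 571 to 883 genes rose and 424 to 709 fell, 562 to 869 and 407 to 654 were shared, and 333 to 969 differed between stages (1872 with DESeq2). The lowest counts came without in vivo hatched library 2 for genes that rose, without IVF hatched library 1 for genes that fell and for both shared counts, and without IVF hatched library 2 for the difference between stages. In the fits with fewer libraries, the replicate block included, sharing was judged on the libraries left in and was easier to meet. Other scalings, filters and voom kept the shared total between 1301 and 1773. IGF2 ranged from -1.62 to 0.093 with 1 library left out (above 0 without in vivo blastocyst library 2), and XBP1 from -0.10 to 0.59 (-0.101, -0.0915 and -0.011 without in vivo blastocyst library 1, in vivo hatched library 2 and IVF blastocyst library 1), and neither was called. Of the 107 shared named genes 77 were called whichever library was left out, and 23 named genes with the 4-cell libraries in the fit. With 2 in vivo libraries a stage, a gene that did not pass may still differ. The simulated data, where most 2-fold changes were not called, held 200 changed genes. Their shares do not measure recovery here, since the adjusted p is stricter where fewer genes change.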

Other observations

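The families below were picked after their values were seen and have no test of their own. Over all genes tested, 6.01% rose and 4.85% fell. Annexins, which bind membrane phospholipids with calcium, had 4 members that rose after IVF and 0 that fell of 12 tested (33.3% rose), all shared by both stages (ANXA1, ANXA2, ANXA8 and ANXA5). ANXA1 had 584 and 807 CPM in the in vivo blastocyst libraries against 3360, 2983 and 2561 after IVF, and 431 and 215 against 1898, 2483 and 2632 in hatched blastocysts (2.46 ± 0.26 on the log2 scale, adjusted p = 0.00113, edgeR). S100A proteins, some of which form complexes with annexins, had 5 that rose and 0 that fell of 12 (41.7% rose), all shared. S100A11, a partner of ANXA1, had 271 and 213 against 860, 715 and 749 CPM, and 197 and 101 against 703, 829 and 724 after hatching (2.0 ± 0.23). S100A10, the partner of ANXA2, changed by 1.81 ± 0.23 and ANXA2 by 1.5 ± 0.18.

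Several families of RNA-binding proteins held genes that fell. Of 51 DDX and DHX helicases 11 fell (21.6%, against 4.85% of all genes tested) and 0 rose, with 40 below 0 (median -0.45), and 10 were shared. DDX5 had 450.0 and 482 CPM against 194, 226 and 224 in blastocysts, and 340.4 and 384 against 203, 196 and 192 in hatched blastocysts (-1.0 ± 0.13). Of 13 SRSF and LUC7L splicing factors 5 fell (38.5%) and 1 rose, with LUC7L3 at -1.63 ± 0.19. Of 20 hnRNP proteins 5 fell (25%), of 34 RBM proteins 4 (11.8%), and of 50 translation initiation factors 7 (14%), with 0 that rose in each. Among single genes outside the lists, the thyroid hormone-binding crystallin CRYM rose (3.26 ± 0.26) and the creatine transporter SLC6A8 fell (-2.23 ± 0.22), each with all 6 IVF libraries on one side of all 4 in vivo libraries.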
